A study of Mus musculus with 12 samples.

Results

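The comparison described here is that of mammary epithelial cells grown for 96 h as spheroids with the same kind of cells grown for 96 h as monolayers. It takes in 6 of the 12 RNA sequencing libraries of the series, 3 of each culture format, chosen by the culture condition and the culture time in the labels. The cells came from C57BL/6 mice, and the labels name no transgene or mutation in any group. Monolayers grew on a collagen coat, and spheroids were embedded in growth factor-reduced Matrigel, a gel of basement membrane proteins. Both formats were kept in MEBM, a mammary epithelial medium, with supplements, progesterone and prolactin. The medium of the gels was changed after 48 h. Since each format had its own matrix, effects of format and of matrix cannot be told apart. The other 6 libraries hold both formats at 48 h and serve here to test whether an effect at 96 h differed from that at 48 h. The series describes the replicates as biological, without saying whether they came from separate animals. The p-values thus set differences against the spread between cultures, estimated over all 12 libraries, and may not extend to other animals. The title of the series places the work in the control of chromosome segregation from outside the cell.

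The mammary gland is built of ducts and alveoli with an inner layer of luminal cells and an outer layer of basal, myoepithelial cells that lie on a basement membrane rich in laminin. Prolactin acts through its receptor, the kinase Jak2 and the transcription factor Stat5 to switch on milk protein genes, and contact with a basement membrane gel is known to favour this programme in culture. Genes needed for mitosis are transcribed late in the cell cycle. Many of them carry a CCAAT box, bound by NF-Y, and a cell cycle homology region with the core TTTGAA, which is bound by MuvB complexes that repress these genes in resting cells and activate them, with B-Myb and Foxm1, in dividing ones.

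Promoters are shown for 4 mitotic genes, chosen after their values were seen, because they hold both elements close to the start site, and for the casein gene Csn2, because it holds the Stat5 motif. The sequences are the 150 bases directly before the start site in RefSeq's annotation of GRCm38.p6, a later build than the mm9 of the counts. They are written 5′ to 3′ in the direction of transcription, and capitals mark TTTGAA and CCAAT on either strand (TTCAAA and ATTGG on the other) in the mitotic genes. Cdc20 (chr4:118437344-118437493, minus strand) encodes an activator of the anaphase-promoting complex, and Ube2c (chr2:164769779-164769928, plus strand) its ubiquitin-conjugating enzyme. Kif11 (chr19:37376232-37376381, plus strand) encodes the kinesin that pushes spindle poles apart, and Top2a (chr11:99024190-99024339, minus strand) the topoisomerase that untangles sister chromosomes.
Cdc20: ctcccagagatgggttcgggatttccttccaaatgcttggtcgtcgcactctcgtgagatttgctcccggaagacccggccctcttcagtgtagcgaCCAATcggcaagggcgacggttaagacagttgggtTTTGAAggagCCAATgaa
Ube2c: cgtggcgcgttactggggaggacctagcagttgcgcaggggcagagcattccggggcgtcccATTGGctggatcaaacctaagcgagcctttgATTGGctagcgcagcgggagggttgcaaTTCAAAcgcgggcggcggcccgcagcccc
Kif11: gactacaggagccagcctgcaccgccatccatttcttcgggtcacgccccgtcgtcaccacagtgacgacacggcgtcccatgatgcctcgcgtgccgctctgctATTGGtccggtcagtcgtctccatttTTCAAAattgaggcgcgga
Top2a: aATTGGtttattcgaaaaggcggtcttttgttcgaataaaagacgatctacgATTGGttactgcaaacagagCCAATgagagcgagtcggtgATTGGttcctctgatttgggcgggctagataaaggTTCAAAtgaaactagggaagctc
In Csn2 (chr5:87699426-87699575, minus strand), the gene of beta-casein, capitals mark TTCNNNGAA, the motif bound by Stat5.
Csn2: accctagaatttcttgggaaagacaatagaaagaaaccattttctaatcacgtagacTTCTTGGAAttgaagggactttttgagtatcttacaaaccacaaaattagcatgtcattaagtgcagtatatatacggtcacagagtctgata

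The first base of TTTGAA lay 18 bases before the start in Cdc20, 29 in Ube2c, 19 in Kif11 and 23 in Top2a. Promoters were searched on both strands from 250 bases before to 50 bases after the start, and a stretch of bases could count for more than 1 motif. TTTGAA stood in 10 of the 13 windows of mitotic kinesin genes (76.9%) and in 6 of the 16 windows of mitotic kinases (37.5%). It was not confined to mitotic lists, with 4 of the 9 milk protein windows (44.4%). The anaphase-promoting complex list held it in 26.1% of windows and the recombination and Fanconi list in 10.7%. Its share was 12.1% over the windows of all tested genes and 17.9% over all 32851 windows of the table. Among genes higher by over 8-fold in spheroids 26.3% of windows held it, and among those lower by over 8-fold 12%. These calls took in 2.42% and 2.77% of the tested genes. CCAAT was found in 69.2% of kinesin windows, 81.2% of kinase windows and 67.9% of windows of homologous recombination and Fanconi genes, beside 37.4% of windows of tested genes. The E2F motifs TTTGGCGC, TTTCGCGC and TTTCCCGC stood in 21.4% of the recombination windows, 15.4% of kinesin windows and 12.5% of kinase windows. Their share was 3.29% of windows of tested genes and 1.84% of all windows. TTCNNNGAA was in 3 of the 9 milk protein windows (33.3%), in 6.82% of windows of tested genes and in 8.3% of all windows. A match describes letters in a window and says nothing of binding in these cells.

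Library totals at 96 h lay between 7674105 and 13554497 counts, and a gene with 3 counts stood at 0.223 to 0.375 CPM, the count divided by the library total and put on a common scale. Levels are CPM with library scaling factors applied, changes are log2 of spheroid over monolayer with a standard error (SE), and a gene is called when edgeR's quasi-likelihood test gives an adjusted p under 0.05 over all 13951 tested genes. By this test 10297 genes differed between formats (73.8%), 5210 higher (37.3%) and 5087 lower (36.5%) in spheroids. By over 2-fold, 1773 genes were higher (12.7%) and 2380 lower (17.1%). The libraries of the formats did not overlap for 11005 genes (78.9%). Because most genes passed, counts of members over 2-fold are read below against 12.7% and 17.1%. Counts of all called members are to be read against 37.3% and 36.5%. The median log2 change of all tested genes was -0.0015. Along the first principal component of the 6 libraries, which held 90.5% of the variance, the monolayers lay between -74.9 and -70.0 and the spheroids between 71.8 and 74.3. Replicate 2 of the monolayers, the library with the fewest counts, stood apart on the second component (2.98% of the variance) at -25.9 against 9.77 and 16.6 for the other monolayers. The summed level of 9 mammary epithelial markers was 4982 to 5376 CPM in monolayers and 7732 to 8104 CPM in spheroids. None of the 9 was at 0 in any library.

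**Figure D1:**
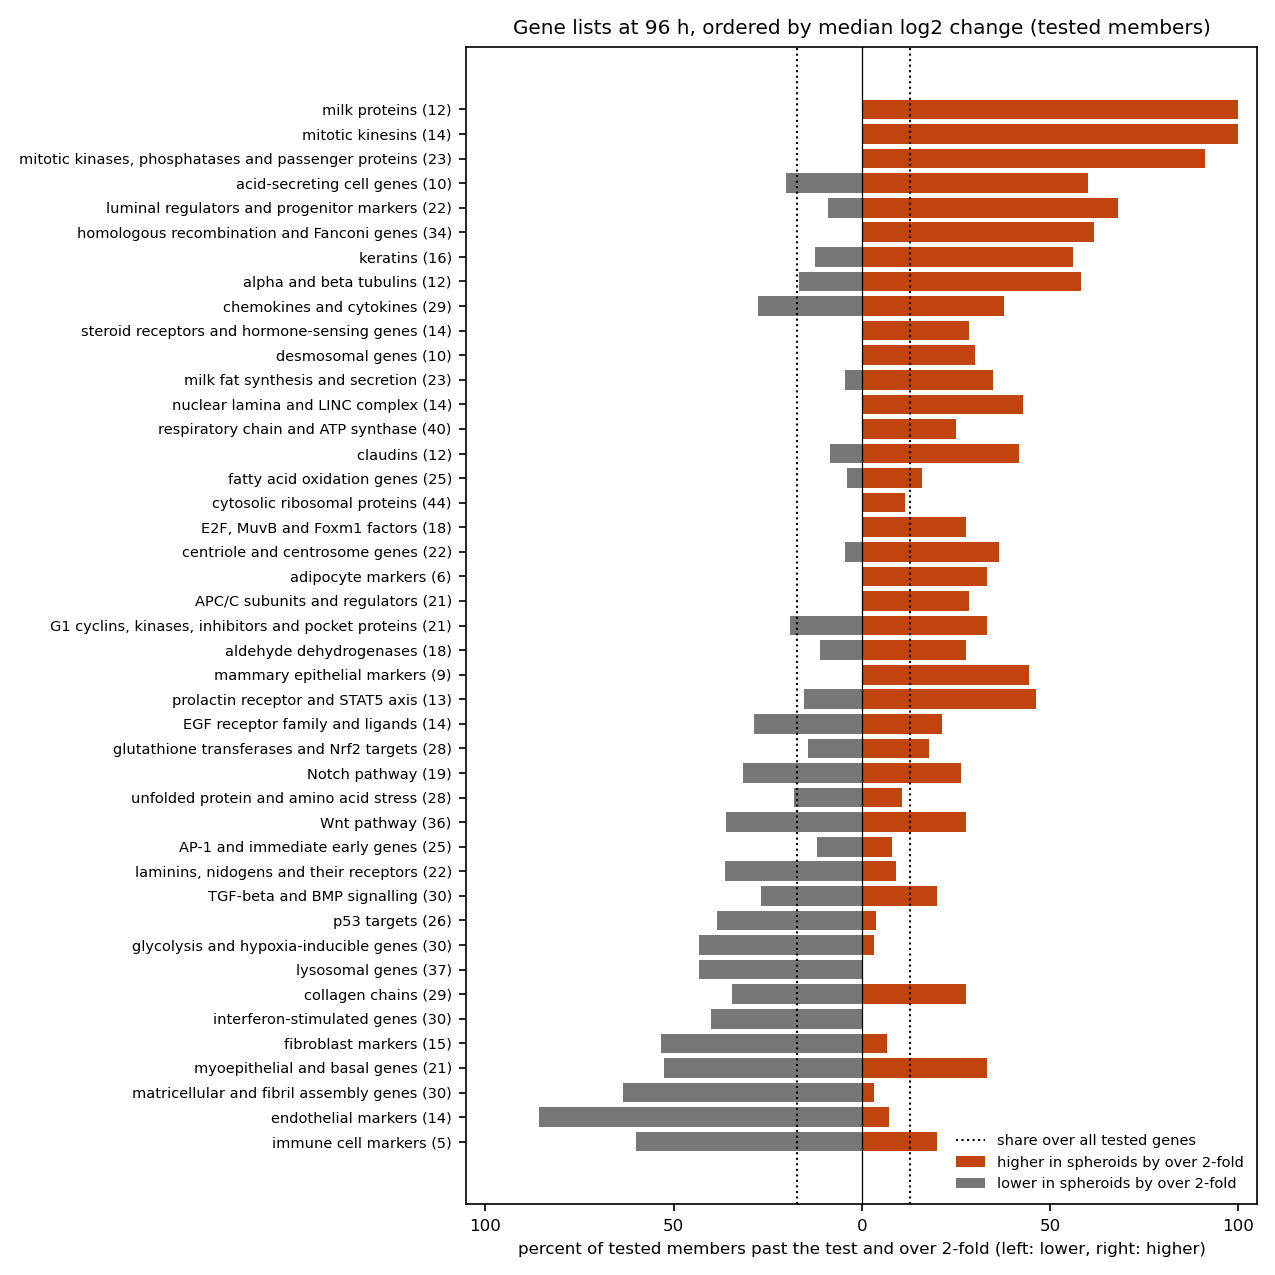
Share of the tested members of each gene list called higher (right) or lower (left) by over 2-fold in spheroids at 96 h, in percent; dotted lines mark the shares over all tested genes, 12.7% higher and 17.1% lower. Mitotic kinesins, mitotic kinases and milk proteins stand far past the line on the higher side, and matricellular genes and endothelial markers on the lower side.

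Genes of cell division were far higher in spheroids. All 14 mitotic kinesins rose by over 2-fold (median log2 change 4.22), as did 21 of 23 mitotic kinases, phosphatases and passenger proteins (median 3.8), with none lower. Kif2c, a kinesin that takes microtubules apart at kinetochores, read 0.720, 0.751 and 2.20 CPM in monolayers and 54.7, 52.7 and 51.9 CPM in spheroids. Each spheroid was thus far above each monolayer, and the log2 change was 5.39 ± 0.185 (SE, adjusted p = 1.1e-14). Cdk1, the kinase that drives entry into mitosis, read 11.8, 15 and 16.3 CPM in monolayers and 134, 140 and 130 CPM in spheroids, 9.44-fold higher. Its partner cyclins were higher by more: Ccnb1, cyclin B1, was 43.9-fold higher (3.29 ± 0.834 against 145 ± 2.88 CPM, SD, n = 3) and Ccna2, cyclin A2, 28.4-fold higher (6.48 ± 1.65 against 184 ± 6.40 CPM). Bulk libraries cannot tell a smaller share of dividing cells in monolayers from less of each transcript per dividing cell.

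**Figure D2:**
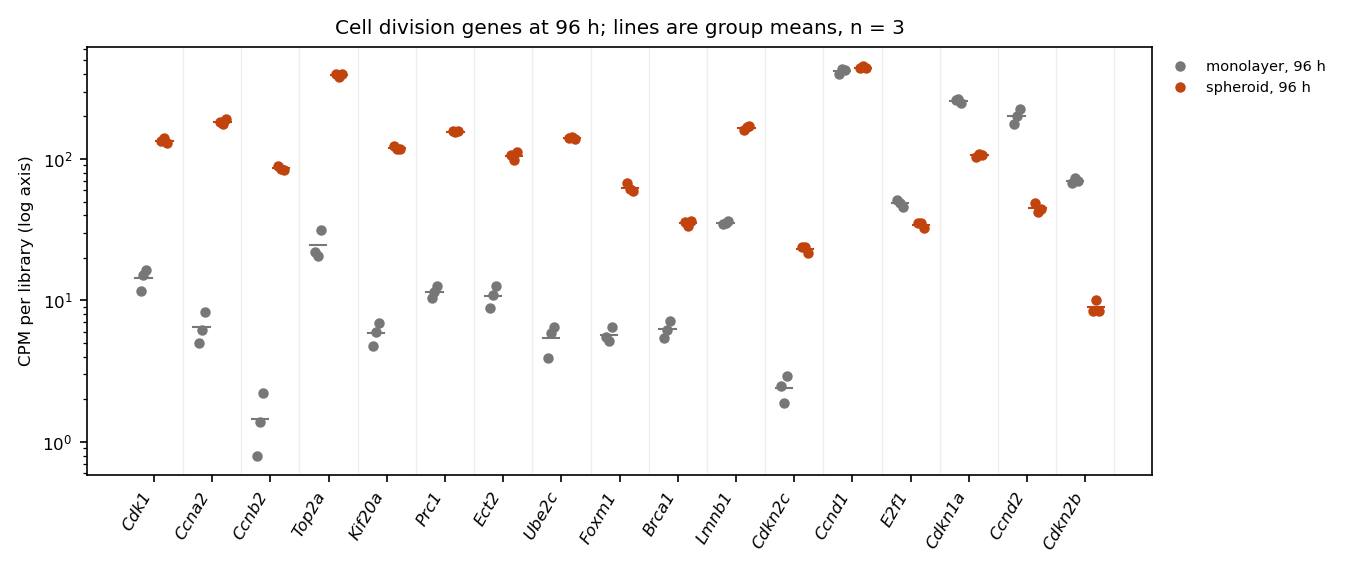
Levels of 17 cell cycle genes in the 6 libraries of 96 h (CPM, log axis); each point is a library and each line the mean of 3. Points of the formats are separate for Cdk1 to Cdkn2c, lie close together for Ccnd1, and are lower in spheroids for E2f1, Cdkn1a, Ccnd2 and Cdkn2b.

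The phosphatase Cdc25c, which activates Cdk1, was 37.5-fold higher, with 19 counts over the monolayers and 887 over the spheroids. Aurka, a kinase of the spindle poles, was 16.2-fold higher and Bub1, a checkpoint kinase, 16.1-fold higher. Kif20a and Prc1, which organise the central spindle, were 20.3-fold and 13.6-fold higher, and Ect2, which triggers the contractile ring, 9.85-fold higher. For 22 of the 23 kinase list members and all 14 kinesins the effect at 96 h also exceeded that at 48 h by the interaction test, which called 26.9% of all tested genes in that direction.

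The anaphase-promoting complex marks securin and mitotic cyclins for destruction. Of its 21 subunits and regulators, 15 were higher, 6 of them by over 2-fold, and the median log2 change was 0.56. Cdc20 read 1.84, 4.25 and 4.05 CPM in monolayers and 95, 94.2 and 97.3 CPM in spheroids. Ube2c rose from 5.44 ± 1.36 to 140 ± 2.55 CPM (log2 change 4.71 ± 0.148, adjusted p = 3.36e-15), and Espl1, separase, the protease that opens cohesin, 13.5-fold. Pttg1, securin, which holds separase inactive, did not pass (16.2 ± 1.90 against 14.4 ± 1.28 CPM, adjusted p = 0.277), and its libraries overlapped. The only other members that did not pass were the core subunits Anapc1, Anapc7, Cdc16 and Cdc27, with log2 changes of 0.06, 0.14, 0.05 and -0.15. Anapc10 was lower (-0.31 ± 0.112, adjusted p = 0.0168), a call lost without replicate 1 of the monolayers (adjusted p = 0.116) or replicate 3 of the spheroids (0.0913).

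Regulators of the G1 phase did not move as a block. Of 21 genes, 12 were higher, 5 lower and 4 did not pass. Ccnd1, cyclin D1, read 401, 435 and 424 CPM in monolayers and 438, 451 and 438 CPM in spheroids. These levels differ little, and the log2 change of 0.08 ± 0.0591 did not pass (adjusted p = 0.251). Ccnd2, cyclin D2, was 4.45-fold lower in spheroids, whereas Ccne2, cyclin E2, was 3.56-fold and Cdk2 3.11-fold higher. Among inhibitors of cyclin-dependent kinases, Cdkn2b (p15) fell from 69.9 ± 3.0 to 8.94 ± 0.945 CPM and Cdkn1a (p21) from 258 ± 7.59 to 106 ± 1.97 CPM. Cdkn2a was lower at low levels (114 counts over the monolayers, 51 over the spheroids), and Rbl2, a pocket protein of resting cells, was 1.41-fold lower. The inhibitor Cdkn2c (p18) went the other way, from 2.42 ± 0.518 to 23.1 ± 1.34 CPM. Ccnd3, Cdk6 and Cdkn1c were the other members that did not pass (adjusted p = 0.0762, 0.389 and 0.377).

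Among the E2F, MuvB and Foxm1 factors, 11 of 18 rose and 2 fell. Foxm1 rose 10.8-fold, Mybl2 (B-Myb) 7.91-fold and the repressor E2f8 12.6-fold. E2f1, an activator of S phase genes, was lower at 51.6, 48.9 and 45.6 CPM in monolayers against 35.1, 35.4 and 32.7 CPM in spheroids. The groups did not overlap, and the log2 change was -0.50 ± 0.0891 (adjusted p = 5.63e-05). Tfdp2, a dimer partner of E2F, was the other factor that fell (-0.19, adjusted p = 0.0415), a call lost without 96 h monolayer 1 or 2, 96 h spheroid 2 or 3, or any of the 48 h spheroids (adjusted p = 0.0542 to 0.166).

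Genes of repair by homologous recombination were higher too. Of 34 recombination and Fanconi genes 28 were higher, 21 by over 2-fold (median log2 change 1.31). Fanci, of the Fanconi pathway, rose 11.9-fold, Rad54l, a motor of strand exchange, 8.55-fold, and Brca1 5.67-fold. Rad51d, which takes part in strand exchange, was the member that fell, from 22.9, 26.0 and 18.8 to 15.5, 16.3 and 15.4 CPM. Of 22 centriole and centrosome genes 16 rose and 3 fell: Plk4, which starts centriole duplication, rose 5.90-fold and Cep55, which acts in abscission, 14.9-fold, while Cep97, which caps centrioles, fell 2.57-fold. The other falls, Ninl and Odf2, were small (log2 changes -0.42 and -0.19), and both calls were lost without replicate 1 of the monolayers (adjusted p = 0.0603 and 0.0585) or replicate 3 of the spheroids (0.075 and 0.107).

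Of 14 genes of the nuclear lamina and its links to the cytoskeleton 10 rose and 3 fell. Lmnb1, lamin B1, read 34.6, 35.4 and 36.3 CPM in monolayers and 159, 167 and 172 CPM in spheroids. All spheroids lay above all monolayers, and the change was 4.69-fold. Lmna, the gene of lamins A and C, rose 2.81-fold and Sun2, which ties the lamina to the cytoskeleton, 3.46-fold. Syne1, Lemd2 and Tor1aip1 fell by 0.83, 0.81 and 0.23 on the log2 scale, and Sun1 did not pass (0.02, adjusted p = 0.788). Of 12 tubulins 9 rose: Tuba1b, an alpha tubulin, rose 5.11-fold (150 ± 15.6 to 725 ± 30.2 FPKM, a level per length of transcript that allows genes to be compared). The other 3 fell: Tuba1a 1.56-fold from 151 FPKM, close to the monolayer level of Tuba1b, and at low levels Tubb3, known from neurons, 3.27-fold and Tubb4a 6.44-fold.

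All 44 tested cytosolic ribosomal protein genes were higher in spheroids (median log2 change 0.69), though only 5 by over 2-fold, a share (11.4%) near the 12.7% over all genes. The median size of change of all tested genes was 0.59. Together they held 2.37 to 2.50% of counts in monolayers and 3.73 to 3.89% in spheroids. Rpl3, of the large subunit, rose 2.53-fold. Of 40 respiratory chain and ATP synthase genes 39 rose, 10 by over 2-fold (25%, median log2 change 0.74), led by Ndufa4, of the electron transport chain, at 3.21-fold, and only Ndufs3 did not pass (0.17, adjusted p = 0.131). Neither list had a called fall.

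Milk proteins had the largest median rise of the lists. All 12 tested genes of a list of 15 were higher by over 2-fold, with a median log2 change of 5.41, and together they took 0.0787 to 0.0982% of counts in monolayers and 1.14 to 1.27% in spheroids. Members with few counts in monolayers passed the filter on low counts through the spheroids. The count of 12, the median and its rank among the lists thus describe only what could be tested. Csn2 read 0.640, 0.250 and 0.705 CPM in monolayers and 894, 875 and 1121 CPM in spheroids. The groups lay apart by 3 orders of magnitude (1673-fold), with 18 counts over the monolayers. Csn3, kappa-casein, was already expressed in monolayers and rose from 154 ± 39.4 to 3921 ± 224 FPKM, and Ltf, lactoferrin, an iron-binding defence protein, from 18.3 ± 2.37 to 1819 ± 142 FPKM. Per length, Csn3 was thus the more abundant of the pair in each format.

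Some milk genes stayed low in both formats. Lalba, alpha-lactalbumin, the cofactor of lactose synthesis, had 477 counts over the spheroids and 1 over the monolayers, a ratio of 392 (95% counting interval 70.1 to 15500), yet stood at 12.2 ± 2.05 CPM in spheroids. Wap, whey acidic protein, had 2 counts and Glycam1 10 counts over all spheroids and 0 over the monolayers, and both were too low to test. Slpi, a protease inhibitor, and Mfge8, a milk fat globule protein, were abundant in each format and rose 3.82-fold and 2.23-fold.

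**Figure D3:**
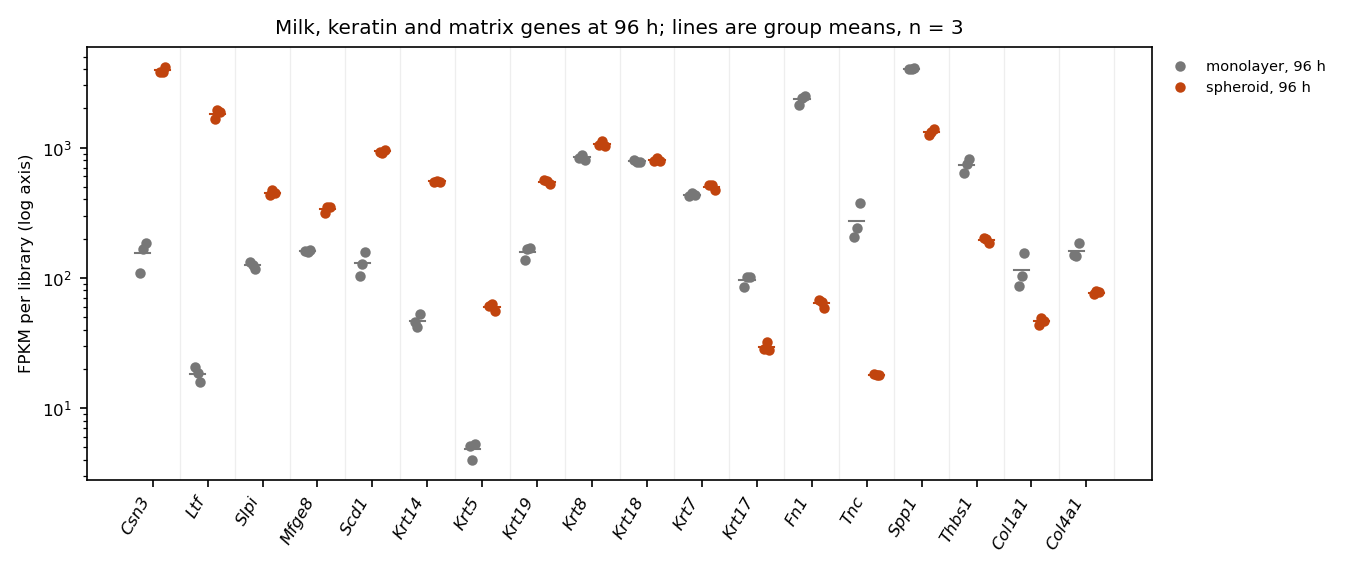
Levels of milk, keratin and matrix genes in the 6 libraries of 96 h (FPKM, log axis); each point is a library and each line the mean of 3. Csn3 and Ltf are higher in spheroids, Krt8 and Krt18 lie close together, and Fn1, Tnc and Thbs1 are lower.

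In the milk fat list 13 of 23 genes rose, 8 by over 2-fold. Scd1, a fatty acid desaturase, rose 7.63-fold to 4600 ± 132 CPM, Acaca, which starts fatty acid synthesis, 3.43-fold, and Btn1a1, butyrophilin of the milk fat globule membrane, 29.2-fold. Plin2, which coats lipid droplets, fell from 966, 894 and 784 CPM to 281, 299 and 274 CPM. It was 1 of 4 members that fell, with Lpin1 (1.65-fold), Slc25a1 (1.47-fold) and Insig1, which restrains sterol synthesis. The Insig1 libraries overlapped, and its call (-0.18, adjusted p = 0.0471) was lost without 96 h monolayer 2 or 3, 96 h spheroid 1 or 2, 48 h monolayer 1, or any of the 48 h spheroids (adjusted p = 0.0521 to 0.3).

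On the prolactin axis, 7 of 13 genes were higher and 4 lower. By over 2-fold 6 were higher (46.2%, beside 12.7% over all tested genes). Those lower by over 2-fold were 2 (15.4%), near the 17.1% over all tested genes. Elf5, a factor that directs alveolar fate, read 11.2, 10.5 and 11.5 CPM in monolayers and 252, 263 and 272 CPM in spheroids. Stat5a rose 9.94-fold, the receptor Prlr 5.72-fold and Cish, a feedback inhibitor induced by Stat5, 4.47-fold. Jak2 went the other way, from 79.2 ± 5.45 to 48.9 ± 1.76 CPM, and Socs1 and Tph1 fell at low levels. Socs3, another feedback inhibitor, was lower by 0.43 on the log2 scale (adjusted p = 0.00831), and this call was lost without replicate 1 of the monolayers (-0.22, adjusted p = 0.127). Socs2 did not pass (-0.16, adjusted p = 0.0507). Among 14 steroid receptor and hormone-sensing genes 10 rose and 2 fell. Pgr, the progesterone receptor, rose 2.81-fold, and Greb1, a hormone-responsive gene, and Nr3c1, the glucocorticoid receptor, fell 1.72-fold and 1.28-fold.

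Lineage genes changed in both directions. Of 22 luminal regulators and progenitor markers 19 rose (median log2 change 1.89), including Cd14 at 7.75-fold, Ly6d at 21.0-fold and the receptor Kit at 3.19-fold. Itga2 and Bcl11a fell 5.49-fold and 2.83-fold, and Sox9 did not pass (-0.12, adjusted p = 0.0906). Krt14, a basal keratin, read 70.1, 67.1 and 83.5 CPM in monolayers and 900, 912 and 909 CPM in spheroids. Spheroids were nearly uniform at a level 12.3-fold above the monolayers, and Krt5, its partner, was 12.9-fold and Trp63, the basal lineage factor, 6.36-fold higher. Per length, Krt14 still lay below the luminal keratins Krt8 (840 ± 35.7 against 1064 ± 48.4 FPKM) and Krt18 (784 ± 15.6 against 806 ± 28.9 FPKM), which changed by 0.42 (adjusted p = 3.94e-05) and 0.12 (0.138) on the log2 scale.

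Of 21 myoepithelial and basal genes, a list that includes Krt5, Krt14 and Trp63, 8 rose and 12 fell, 11 by over 2-fold. Tagln, an actin-binding protein, read 52.4, 68.6 and 115 CPM in monolayers and 4.28, 5.75 and 4.23 CPM in spheroids. The monolayers varied, yet the lowest lay far above every spheroid, and the change was -4.05 ± 0.25 (adjusted p = 5.34e-11). Acta2, smooth muscle actin, fell 7.77-fold, Myl9 15.3-fold and Myh11 8.24-fold. Oxtr, the oxytocin receptor through which myoepithelium is made to contract, rose 29.9-fold.

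Of 16 keratins 11 rose and 2 fell, Krt17, another basal keratin, by 3.10-fold and Krt20 from 55 counts over the monolayers to 1 over the spheroids (ratio 66.9, 95% counting interval 11.5 to 2690). Krt19 rose 3.66-fold and Krt6a 5.54-fold. Krt18, Krt23 and Krt80 did not pass. Of 12 claudins, which seal tight junctions, 7 rose and 3 fell. Cldn7 rose 2.30-fold and Cldn3 2.11-fold, and Cldn2, a pore-forming claudin, had 107 counts over the spheroids and 0 over the monolayers, at least 29.3-fold higher (against 3 counts, the limit set for a group at 0). Cldn4 fell from 671 ± 55.0 to 363 ± 23.1 CPM and Cldn12 1.36-fold. Cldn5 fell too (33 against 13 counts), a call lost without replicate 1 of the monolayers (adjusted p = 0.0534). Desmosomal genes rose for 7 of 10, with Pkp3 at 2.73-fold, and Dsc2 fell 1.66-fold.

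Matricellular genes, which bind and organise the extracellular matrix, were mostly lower in spheroids. Of 30 matricellular and fibril assembly genes 20 fell, 19 by over 2-fold, and 4 rose (median log2 change -1.67), and their joint share of counts was 4.12 to 4.99% in monolayers and 0.753 to 0.760% in spheroids. Fn1, fibronectin, read 15600, 18060 and 18860 CPM in monolayers and 522, 512 and 461 CPM in spheroids. Tnc, tenascin C, fell 15.8-fold, Ccn2 13.7-fold and Thbs1, thrombospondin, 3.57-fold. Loxl4, a crosslinking enzyme, was the member that rose over 2-fold (4.36-fold). Ltbp3, Fbln5 and Ltbp2 rose by less (1.46-fold, 1.44-fold and 1.32-fold), the last a call lost without replicate 1 of the monolayers (adjusted p = 0.0549), with libraries that overlapped.

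Of 29 collagen chains 10 rose, 8 by over 2-fold, and 17 fell, 10 by over 2-fold. The fibrillar chains Col1a1 and Col1a2 fell 2.36-fold and 3.55-fold and Col5a2 4.54-fold, whereas the fibrillar chain Col3a1 was higher in spheroids. The basement membrane chains Col4a1 and Col4a2 fell 1.97-fold and 1.75-fold. Another type IV chain, Col4a6, and Col17a1, of hemidesmosomes, rose 4.54-fold and 4.39-fold, and the type VI chains Col6a1, Col6a2 and Col6a3 rose 2.61-fold to 3.57-fold. Of 22 laminins, nidogens and their receptors 6 rose and 13 fell. Lamb1, a laminin subunit, read 673, 655 and 625 CPM in monolayers and 147, 147 and 138 CPM in spheroids, and Lama3 fell 3.59-fold. Lama5 rose 1.90-fold, as did the laminin receptors Itga6 (2.28-fold) and Bcam (4.50-fold). The receptor subunit Itgb1 fell 2.42-fold.

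Fibroblast markers, which include matrix genes, fell along with these groups and with Tagln, Acta2, Myl9 and Myh11: 8 of 15 were lower and 2 higher, and their summed level was 2396 to 3500 CPM in monolayers and 868 to 917 CPM in spheroids, with no member at 0. Pdgfra, a defining receptor of fibroblasts, read 153, 138 and 119 CPM in monolayers and 17.3, 19.2 and 18.9 CPM in spheroids, whereas Col3a1 and Dpt were higher in spheroids (1.61-fold and 7.16-fold). The part of fibroblasts in those results was not tested. Endothelial markers fell for 12 of 14, with a summed level of 112 to 126 CPM in monolayers and 49.4 to 55.2 CPM in spheroids: Cdh5 and Pecam1, defining genes of vessel lining, fell 11.0-fold and 9.06-fold from 28.7 and 16.8 CPM. Vwf was higher (4.76-fold) and Flt1 did not pass (adjusted p = 0.0944). Of 20 immune markers 5 could be tested, and 3 fell: Cd68 4.97-fold, Lyz2 4.44-fold and Laptm5 5.52-fold. Itgam rose 2.19-fold and Csf1r did not pass (adjusted p = 0.089). The summed level of the list was 47.1 to 53.3 CPM in monolayers and 32.9 to 36.8 CPM in spheroids, and Ptprc, the common leukocyte antigen, had 1 count over the monolayers and 3 over the spheroids. Of 12 adipocyte markers 6 could be tested, and 3 of these rose, 2 by over 2-fold, and 1 fell. Their list had a summed level of 145 to 148 CPM in monolayers and 138 to 148 CPM in spheroids. Adipoq, of fat cells, had 2 counts over the monolayers and 13 over the spheroids.

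Ligands and receptors of several pathways changed in both directions, and so did all tested genes (37.3% higher, 36.5% lower). In the TGF-beta and BMP list 19 of 30 genes fell and 7 rose. By over 2-fold 8 fell (26.7%) and 6 rose (20%), beside 17.1% and 12.7% over all tested genes. Inhba, an activin subunit, read 190, 176 and 198 CPM in monolayers and 8.18, 7.07 and 6.60 CPM in spheroids. The BMP antagonist Grem1 fell 16.4-fold, while Id1 and Id2, targets of BMP, rose 12.2-fold and 6.15-fold. The ligands Tgfb2 and Tgfb3 rose 3.54-fold and 5.92-fold. In the EGF receptor family Erbb2 and Erbb3 rose 2.92-fold and 2.26-fold and Egfr fell 2.36-fold. Its ligand Hbegf fell 4.15-fold, and Areg, which carries hormone signals in the gland, was 1.19-fold higher, a call lost without replicate 1 or 3 of the monolayers or replicate 2 of the spheroids (adjusted p = 0.0501 to 0.0686).

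Notch genes were evenly split, 9 higher and 9 lower of 19. By over 2-fold 5 rose (26.3%) and 6 fell (31.6%), beside 12.7% and 17.1% over all tested genes. The ligand Jag1 fell from 273 ± 18.5 to 32.3 ± 2.20 CPM and Notch4 8.57-fold, whereas the ligand Jag2, the receptor Notch3 and the target Hey1 rose 3.17-fold, 1.91-fold and 6.22-fold. In the Wnt list 15 of 36 rose and 19 fell, 10 (27.8%) and 13 (36.1%) of them by over 2-fold. The ligands Wnt11, Wnt9a and Wnt5a fell 9.68-fold, 6.84-fold and 4.07-fold, and the receptors Lgr4 and Fzd7 rose 2.71-fold and 2.64-fold. Axin2, a standard target, was 1.30-fold higher at the edge of the threshold (adjusted p = 0.0495). The call was lost without 96 h monolayer 1 or 2, any of the 96 h spheroids, 48 h monolayer 2 or 3, or 48 h spheroid 1 (adjusted p = 0.0506 to 0.178).

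Of 29 chemokines and cytokines 14 rose (48.3%) and 9 fell (31%), beside 37.3% and 36.5% of all tested genes. By over 2-fold 11 rose (37.9%) and 8 fell (27.6%), beside 12.7% and 17.1%. Cxcl5, which attracts neutrophils, read 1.04, 1.0 and 1.5 CPM in monolayers and 140, 151 and 148 CPM in spheroids. Il1rn, the interleukin 1 receptor antagonist, rose 23.6-fold. Csf1, a macrophage growth factor, fell from 1402 ± 85.2 to 131 ± 1.36 CPM, and Il6, with 287 counts over the monolayers and 8 over the spheroids, 41.1-fold. Interferon-stimulated genes were lower for 21 of 30, led by Ifi44 (5.65-fold) and Xaf1 (4.0-fold), and Gbp2, Ddx58 and Oasl1 were higher by 1.27-fold to 1.81-fold. Among AP-1 and immediate early genes 18 of 25 fell and 7 rose. By over 2-fold 3 fell (12%) and 2 rose (8%), below the 17.1% and 12.7% over all tested genes. Fos itself was 1.80-fold higher.

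Lysosomal genes fell for 32 of 37, 16 by over 2-fold (median log2 change -0.85), and their share of counts was 1.54 to 1.70% in monolayers and 0.886 to 0.910% in spheroids. Npc1, which exports cholesterol, read 256, 232 and 212 CPM in monolayers and 73.7, 72.2 and 69.7 CPM in spheroids, 3.25-fold lower. Idua and Hexa, hydrolases of glycosaminoglycans and gangliosides, fell 5.34-fold and 3.29-fold. At 48 h the list's median was 0.05, and for 33 of the 37 the effect at 96 h lay below that at 48 h, a direction called for 26.4% of all tested genes. The immune markers Cd68, Lyz2 and Laptm5, of macrophages among other cells, fell with this list, and their part in it was not tested. The rises were Ctsh (1.98-fold), Tfeb (1.61-fold), Ctsc (1.59-fold) and Lipa (1.16-fold), and Lamp1 did not pass (-0.12, adjusted p = 0.0879).

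In a list of 26 genes, p53 targets and Trp53 itself, 20 fell, 10 by over 2-fold (median log2 change -0.78). Trp53 was 1.25-fold higher. Gadd45a, a growth arrest gene, fell from 181 ± 6.08 to 18.3 ± 0.927 CPM and Mdm2, the ligase that degrades p53, 4.44-fold. Sesn1 and Perp were the other members that rose, and Fas, Ei24 and Plk3 did not pass. Glycolysis and hypoxia-inducible genes fell for 19 of 30, with Slc16a3, a lactate exporter, 6.96-fold and Vegfa 6.85-fold lower, while Ldha, lactate dehydrogenase, was 1.2-fold higher. Of 28 genes of unfolded protein and amino acid stress 16 fell and 11 rose. By over 2-fold 5 fell (17.9%) and 3 rose (10.7%), near the 17.1% and 12.7% over all tested genes. The stress factor Ddit3 fell 7.29-fold and the chaperone Hspa5 1.67-fold.

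Of 19 genes of acid-secreting cells 10 could be tested, and 7 of these rose, 2 fell and Cftr did not pass. Members with few counts in monolayers passed the filter through the spheroids, so these counts describe only what could be tested. Foxi1, the factor that specifies such cells, read 0.480, 1.63 and 0.969 CPM in monolayers and 35.7, 38.6 and 34.2 CPM in spheroids. The proton pump subunits Atp6v1b1 and Atp6v0a4 rose 271-fold and 102-fold from 8 and 9 counts over the monolayers, whereas Atp6v0d2 fell 2.69-fold and Dmrt2 was left with 4 counts over the spheroids against 54. Of 18 aldehyde dehydrogenases 11 rose and 3 fell. Aldh3a1 rose 67.0-fold and Aldh1a3, a marker of luminal progenitors, 3.82-fold, while Aldh1l1 and Aldh1l2, which act in folate metabolism, fell 3.37-fold and 1.69-fold.

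Outside the lists, the largest rises by the naming rule included 2 kallikrein proteases. Klk10 read 1.12, 0.501 and 0.529 CPM in monolayers and 259, 258 and 238 CPM in spheroids, and Klk6 had 3 counts against 804 (ratio 220, 95% counting interval 75.1 to 1070). Gabrp, a subunit of a GABA receptor, rose 68.7-fold, Cbr2, a carbonyl reductase, 76.2-fold and Lgals7, a galectin of stratified epithelia, 110-fold. The row 2310057J18Rik had 807 counts over the spheroids and 0 over the monolayers, at least 221-fold higher. The largest falls included Mmp9, a matrix protease (42.2-fold), Star, which moves cholesterol into mitochondria (41.9-fold), and Angpt2, a vessel-destabilising ligand (36.0-fold). Of the spheroids only replicate 3 held counts of Gm16378 (9 counts against 610 over the monolayers), and its log2 change was -6.33, or -10.72 without that library.

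At 48 h 8081 of the tested genes (57.9%) were called. For 1058 genes (7.58%) the formats differed in opposite directions at 48 h and 96 h, among them 10 of 37 lysosomal genes, 8 of 28 of unfolded protein and amino acid stress and 5 of 28 glutathione transferases and Nrf2 targets. The genes described next were in part chosen for this reversal. Hmox1, the haem-degrading enzyme, read 1423, 1299 and 1263 CPM in monolayers and 172, 170 and 166 CPM in spheroids at 96 h. At 48 h the order was reversed, with 197, 228 and 258 CPM in monolayers and 490, 525 and 507 CPM in spheroids, and the effects differed by -4.13 ± 0.12 on the log2 scale (interaction, adjusted p = 2.8e-14). The cystine transporter Slc7a11 turned from 4.74-fold higher in spheroids at 48 h to 5.72-fold lower at 96 h. Gclc and Gclm, which make glutathione's precursor and share regulation by Nrf2 with both, were higher at 48 h (log2 change 2.52 and 2.02) and did not pass at 96 h (0.01 and -0.04). Nqo1, another Nrf2 target, was higher at each time, 4.66-fold at 96 h.

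**Figure D4:**
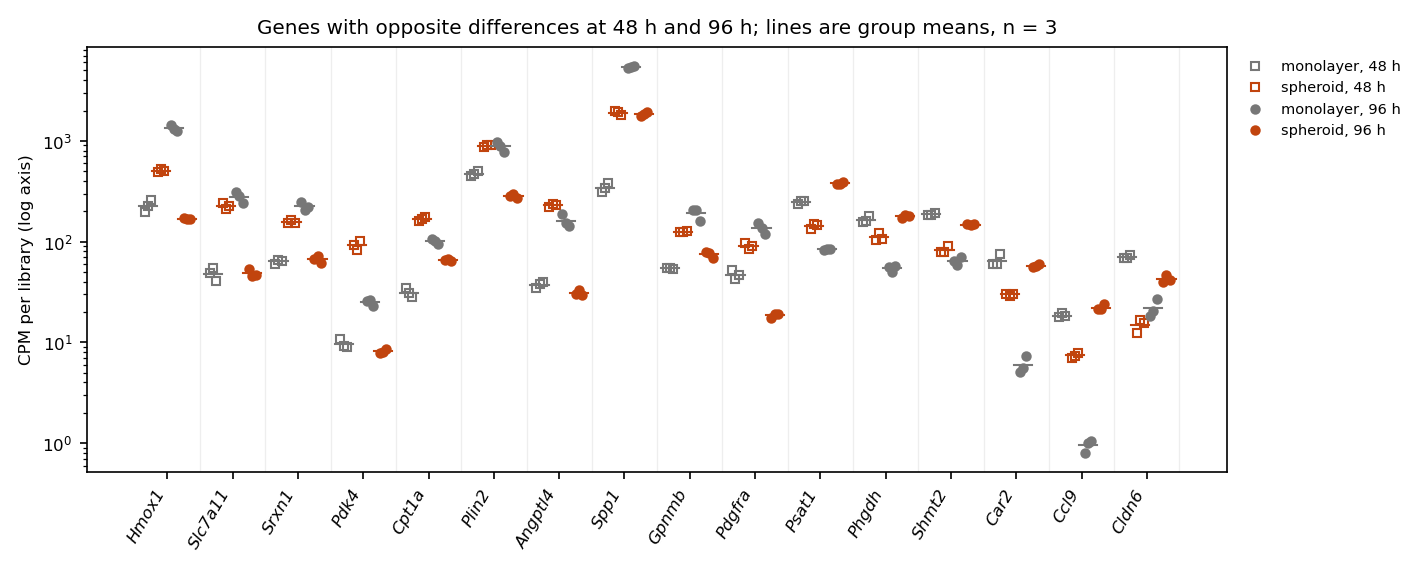
Levels of 16 genes whose formats differed in opposite directions at the 2 times, in all 12 libraries (CPM, log axis; lines are means of 3). Hmox1 to Pdgfra are higher in spheroids at 48 h and in monolayers at 96 h, and Psat1 to Cldn6 show the reverse order.

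Pdk4 and Cpt1a, which switch mitochondria to fatty acids, followed the same course. Pdk4 read 10.9, 9.12 and 8.94 CPM in monolayers and 93.0, 82.1 and 101 CPM in spheroids at 48 h, against 25.7, 26.4 and 23.0 CPM and 7.87, 7.97 and 8.68 CPM at 96 h. Of 25 fatty acid oxidation genes 20 were higher at 96 h, and 3 reversed. Those higher by over 2-fold were 4 (16%), near the 12.7% over all tested genes. Angptl4, a lipase inhibitor, turned from 6.15-fold higher to 5.21-fold lower. Spp1, osteopontin, stood at 344 CPM in monolayers against 1902 CPM in spheroids at 48 h, and at 5390 against 1853 CPM at 96 h (means, n = 3).

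The 8 genes of the unfolded protein and amino acid stress list that reversed turned the opposite way, from lower to higher in spheroids. Psat1, an enzyme of serine synthesis, read 234, 252 and 252 CPM in monolayers and 133, 151 and 148 CPM in spheroids at 48 h, and 82.5, 84.7 and 84.5 CPM against 372, 371 and 391 CPM at 96 h. Phgdh, of the same pathway, Shmt2 and Mthfd2, of one-carbon metabolism, and Asns, which makes asparagine, were likewise lower in spheroids at 48 h and higher at 96 h, with interaction log2 values of 2.28 to 2.57. Car2, a carbonic anhydrase, and Ccl9, a chemokine, turned the same way, from 2.16-fold and 2.49-fold lower to 9.61-fold and 23.3-fold higher. At the level of all genes, the interaction was called for 7432 (53.3%).

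**Figure D5:**
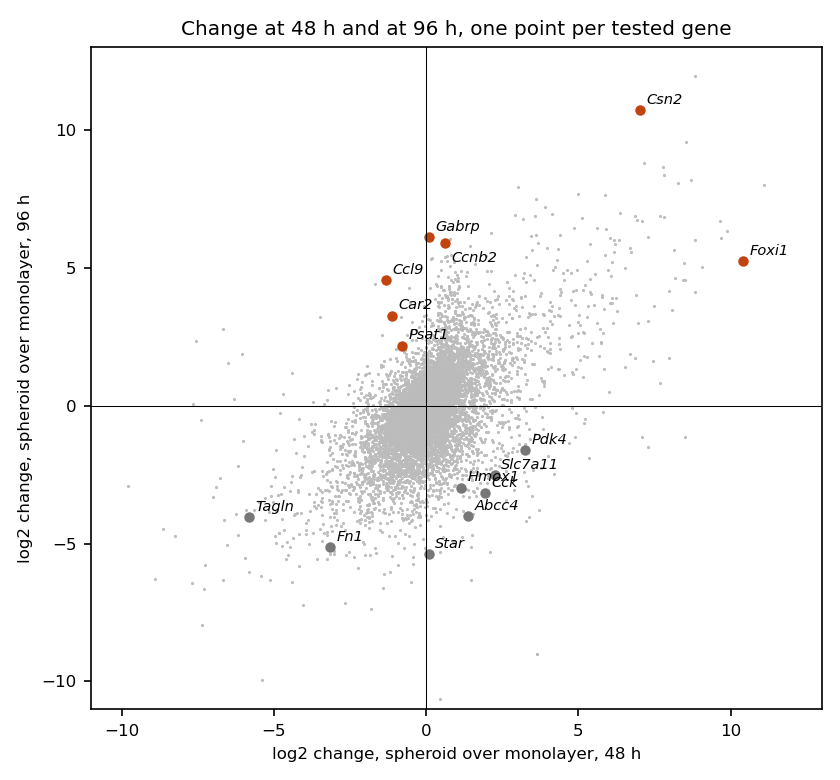
Log2 change of spheroids over monolayers at 48 h (horizontal) and 96 h (vertical), one point per tested gene, with named genes marked. Csn2 lies high on both axes, Ccnb2 and Gabrp rise mainly at 96 h, and Hmox1 and Pdk4 lie in the quadrant of genes higher in spheroids at 48 h and lower at 96 h.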

How the data were processed

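RNA was purified with RNA STAT-60 and sequenced from Illumina TruSeq libraries, per the labels' protocols. The authors' tools were Bowtie 1.0.1, RSEM 1.2.30 and bcl2fastq 2.15.0, and the build was mm9, per the submitters' processing notes. No source used here gives program options or the strand setting, so sense and antisense partners cannot be told apart. The deposited values are RSEM expected counts rounded to whole numbers (338 zeros stand beside an FPKM above 0) and log2 of FPKM plus 1. In the deposited annotation 2093 of 28427 rows carry more than 1 symbol, and RSEM may split reads between similar genes such as caseins, kallikreins, tubulins and the 2 Gvin1 rows. No column lacked a sample of the series.

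Counts of all 12 libraries were fitted with edgeR 4.0.16 (R 4.3.3) by glmQLFit and glmQLFTest on group means, with TMM scaling and filterByExpr (minimum count 10, total 15), which kept 13951 genes. Rows left out held 0.0732% of counts. Contrasts were spheroid minus monolayer at 96 h and the interaction, that effect minus the 48 h effect. Tests were 2-sided with Benjamini-Hochberg adjustment at 0.05. SE is the log2 change divided by the square root of F and can be too small where counts are few. On simulated data with 50 genes changed in each way, the 96 h contrast recovered 92% of 2-fold rises (log2 1), 80% of 2-fold falls, 100% of 4-fold rises and 98% of 4-fold falls. Of the unchanged genes 0.0655% were called. The simulation gave all other genes the same mean and spread in the 4 groups, while 73.8% of genes were called in the data. It therefore checks that the fit works and does not give the error rates of this comparison.

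Folds against 0 counts use a floor of 3 counts over the group, and with 1 to 3 counts an exact 95% interval is given. Both cover counting error only. FPKM values are the deposited log2 values turned back. The 43 lists (993 entries, 3 symbols without a row) and the members were chosen with earlier results of these data known. Genes are named by rule: per list the 3 largest called rises and falls without overlap and a mean log2 CPM no lower than 3, the 10 largest each way outside the lists, the 3 largest reversals each way, and a preset list. Others, including members of small counts and those that did not pass, were chosen after their values were seen. The alternatives were 22, among them DESeq2 1.42.0, limma 3.58.1 on log2 FPKM, other scalings and filters, a replicate block and leaving out each library. Those leaving out a 48 h library were added after seeing the data. Motifs were searched in RefSeq promoters of GRCm38.p6.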

Additional observations from a re-analysis of the deposited data

Results flagged for a closer look

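For 45 of the 341 named genes that were tested, the effect of culture format at 96 h differed from that at 48 h. In each the formats were called in opposite directions at the 2 times, as they were for 7.58% of all tested genes. The values are interaction log2 values from edgeR's quasi-likelihood test, the effect at 96 h minus that at 48 h, and the genes were in part chosen for this reversal.

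Genes higher in spheroids at 48 h and lower at 96 h have negative values. Among redox and lipid genes these were -4.13 for Hmox1, -4.76 for Slc7a11, -3.06 for Srxn1, -4.86 for Pdk4, -3.04 for Cpt1a, -2.54 for Plin2, -5.00 for Angptl4 and -3.52 for Fabp4. Among lysosomal, phagocytic and pump genes they were -1.61 for Ctsd, -3.31 for Cd68, -2.55 for Gpnmb and -3.92 for Atp6v0d2. Signalling genes gave -1.90 for Socs3, -2.27 for Socs1, -3.28 for Greb1, -2.10 for Btc and -5.09 for Cck. Matrix, transport and junction genes gave -4.01 for Spp1, -2.93 for Dcn, -3.83 for Pdgfra, -5.39 for Abcc4 and -3.29 for Cldn5.

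Genes lower in spheroids at 48 h and higher at 96 h have positive values. Serine, one-carbon and amino acid genes gave 2.95 for Psat1, 2.28 for Phgdh, 2.36 for Shmt2, 2.35 for Asns, 2.53 for Psph and 2.57 for Mthfd2. Epithelial genes gave 1.41 for Krt8, 1.77 for Krt7, 0.87 for Cdh1, 1.05 for Epcam, 1.36 for Cldn3 and 3.23 for Cldn6. Matrix genes gave 2.90 for Fbln5, 1.28 for Ltbp2 and 1.56 for Col3a1. The others were 1.27 for Ddx58, 2.97 for Oasl1, 0.96 for Ctsc, 1.21 for Ndrg1, 1.22 for Car9, 5.86 for Ccl9, 4.80 for Pimreg and 4.38 for Car2. Of these calls at 96 h, that of Cdh1 (adjusted p = 0.0371) was lost without 48 h monolayer 2, 96 h monolayer 1 or 2, or any of the 96 h spheroids (0.0521 to 0.179). That of Psph (0.0143) was lost without replicate 3 of the 96 h monolayers (0.0509) or replicate 2 of the 96 h spheroids (0.0609). Those of Ltbp2, Cldn5 and Socs3 were lost without replicate 1 of the 96 h monolayers (0.0549, 0.0534 and 0.127).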

How the results depend on the processing

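Counts over all genes stayed within 1.5 times of the reported ones, except that log2 FPKM with limma gave 1177 genes higher and 1284 lower by over 2-fold and the stricter filter on low counts 1530 lower by over 2-fold. The stricter filter tests fewer genes, and for the log2 FPKM values the cause was not tested. The balance of directions depended on the scaling. Of the calls 50.6% were higher in the reported fit, against 49.1% with DESeq2-type scaling, 46% on log2 FPKM and 45.8% by total count. By upper quartile it was 44.7%, with 4631 genes higher and 5740 lower. With 1 library left out, genes higher numbered 4991 to 5361, lower 4793 to 5354, over 2-fold higher 1749 to 1876, over 2-fold lower 2335 to 2479, and interaction calls 6831 to 7724.

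Of the values of named genes 7306 kept direction and side of the threshold, 72 lost the threshold, 46 passed it newly and 32 changed sign. The sign changes were all in genes that did not pass in the reported fit, and 1 of them, Sun1 on log2 FPKM, passed there (adjusted p = 0.0443). Ccnd1 was -0.0049 on log2 FPKM, -0.0004 by total count and -0.018 by upper quartile. Gclc was -0.0145 with DESeq2-type scaling, -0.0141 with DESeq2, -0.0703 on log2 FPKM, -0.0678 by total count, -0.0598 with the stricter filter, -0.085 by upper quartile, and -0.0484 to 0.072 with 1 library left out. Sun1 was, in the same order, -0.0058, -0.0049, -0.1488, -0.0599, -0.0513 and -0.0765. On log2 FPKM, by total count, with the stricter filter and by upper quartile, Anapc1 was -0.1023, -0.0217, -0.0134 and -0.0386 and Krt80 -0.0044, -0.0282, -0.0196 and -0.0447. Krt80 ranged from -0.0284 to 0.1929 and Cftr from -0.17 to 0.5563 with 1 library left out. Cdc16 was -0.0316 by total count, -0.0226 with the stricter filter and -0.048 by upper quartile.

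Some list medians changed sign. In the reported fit they were -0.0838 for Notch, 0.0202 for glutathione and Nrf2, and 0.2095 for the EGF list. The Notch median was 0.2389 in the 6 libraries alone, 0.18 with the stricter filter, and -0.1068 to 0.0884 with 1 library left out. The glutathione and Nrf2 median was -0.0031 with DESeq2-type scaling, -0.0023 with DESeq2, -0.0529 on log2 FPKM, -0.0579 by total count, -0.0598 with the stricter filter, -0.0741 by upper quartile and -0.0151 to 0.0528 with 1 library left out. The EGF median was -0.1106 without a filter.

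Same-numbered replicates of the formats did not deviate together (correlations 0.0791, 0.0019 and -0.0103), and not every library correlated best with its own number. With the replicate number as a block, 10287 genes were called, 5201 higher and 5086 lower, 1770 and 2377 of them by over 2-fold, with 7417 interaction calls. Genes with few counts limit the precision of the largest folds: Krt15, with 5 counts all in replicate 1 of the monolayers, had a log2 change of 5.58, or 9.45 without it.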
